A study of Mus musculus with 4 samples.

Results

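The genes of the cytosolic ribosomal proteins were taken from the gene count table by their symbols, Rpl or Rps followed by a number and up to 3 further characters, together with Rpsa and Rplp0 to Rplp2. Ribosomal protein kinases, Rps19bp1 and the copies Rps3a2 and Rps3a3 were left out. The rule found 89 of the 41342 named genes, 36 of the small (40S) and 53 of the large (60S) subunit. Of these, 77 encode the standard proteins and 12 are paralogs or retained retrogenes with names of their own. A mean of at least 50 counts per library was reached by 84 (34 of the 40S and 50 of the 60S), which were compared with the 11286 genes passing the same minimum. Rpl3l, Rpl10l, Rpl39l, Rps4l and Rps12l1 did not reach it.

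RNA came from splenic B cells of strain 129 mice, freed of CD43-bearing cells. In ΔleftPAL mice a germline deletion at the 3' regulatory region (3'RR) of the IgH locus removes the enhancers hs3a and hs1,2 and the inverted repeats between them. In ΔIRIS mice those repeats are deleted and hs3a is inverted, with every enhancer kept. Both lines derive from targeted embryonic stem cells, and the neomycin cassette was removed by cre. Each genotype gave 1 library of freshly isolated (resting) cells and 1 of cells kept in culture with LPS at 5 μg per ml over 48 h. No library came from cells cultured without LPS, so changes with LPS cannot be told apart from changes with time in culture. LPS, a lipopolysaccharide of bacteria, drives B cells to grow, divide and secrete antibody. Animals were described as males of 8 to 12 weeks. Each library pools RNA or cells of several mice, 4 according to the sample descriptions, and wt libraries were not analysed here. With 1 library per group no difference below has a replicate check, and no p-value is given.

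A ribosome consists of a small subunit, which reads the mRNA, and a large subunit, which joins amino acids, and each subunit carries 1 copy of most of its proteins, so cells make these proteins in matched amounts. Their mRNAs start with a run of pyrimidines, the terminal oligopyrimidine (TOP) tract, through which mTOR and LARP1 set their translation. Activated lymphocytes grow before they divide and raise their ribosome content.

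The gene counts of named genes summed to between 23615496 and 29776108 per library, and 3 counts, the floor used here, corresponded to 0.101 to 0.127 CPM, that is, counts divided by library size. CPM below use TMM effective library sizes, and ratios are log2 ratios of CPM plus 0.5. All 7 B cell markers were detected in every library, with a summed level of 8766 and 7770 CPM at rest and of 4046 and 3890 CPM after LPS. The 6 erythroid markers summed to 41305 and 28663 CPM in resting ΔleftPAL and ΔIRIS cells and to 58.2 and 124 CPM after LPS. The 6 myeloid markers summed to 288 and 386 CPM at rest and to 6.79 and 16.0 CPM after LPS, when 3 of them were at 0. The 7 T and NK cell markers summed to 51.1 and 43.9 CPM at rest and to 18.3 and 17.2 CPM after LPS, when 3 and 5 of them were at 0. The 8 proliferation genes summed to 554 and 668 CPM at rest and to 4145 and 4602 CPM after LPS. The part of these cell types in the ratios below was not tested, and fewer cells of a type cannot be told apart from less RNA per cell.

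Promoter windows of 6 genes are shown because TOP mRNAs are defined by a pyrimidine tract at the transcription start. RefSeq (GRCm38.p6) gave 78 windows for 66 of the 89 genes. Each sequence below runs from 50 bases before the annotated start to 50 bases after it, in the gene's direction, from the C57BL/6J reference and not from the strain 129 cells. Capitals mark the longest run of C and T in the window, which is not read as the TOP tract. It begins near the annotated start only in Rps27, 2 bases before it. In Rps27l the marked run begins 22 bases before the start and is followed, 1 base later, by an unmarked run of the same length, and in Rpl4, Rpl36al, Rps2 and Rpl41 at base 27, 29, 41 and 41 of the transcript. Shown are 4 of the 5 genes with the largest rise shared by both genotypes (the longest run of the remaining one, Rpl7l1, has 7 bases), Rps27, which was lower after LPS, and Rpl4, which has one of the highest counts. Rps27l has a pair of annotated starts, of which the upstream one is shown.
Rps2: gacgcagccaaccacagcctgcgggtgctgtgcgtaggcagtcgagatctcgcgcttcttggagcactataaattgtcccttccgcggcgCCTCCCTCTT
Rpl41: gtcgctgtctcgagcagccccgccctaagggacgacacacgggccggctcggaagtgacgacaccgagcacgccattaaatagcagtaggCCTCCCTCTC
Rps27l: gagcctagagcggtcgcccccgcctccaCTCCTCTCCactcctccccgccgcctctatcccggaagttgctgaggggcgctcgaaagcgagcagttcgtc
Rpl36al: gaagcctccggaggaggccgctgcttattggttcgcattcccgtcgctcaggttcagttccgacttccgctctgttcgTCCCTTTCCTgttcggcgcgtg
Rps27: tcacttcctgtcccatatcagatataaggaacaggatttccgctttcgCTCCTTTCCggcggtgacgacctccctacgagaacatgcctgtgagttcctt
Rpl4: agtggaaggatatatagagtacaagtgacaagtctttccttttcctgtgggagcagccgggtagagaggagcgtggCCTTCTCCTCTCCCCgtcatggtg
These windows lie at chr17:24720013-24720112 (plus strand), chr10:128549119-128549218 (minus), chr9:66946036-66946135 (plus), chr12:69184018-69184117 (minus), chr3:90213599-90213698 (minus) and chr9:64173337-64173436 (plus). A run of at least 8 pyrimidines was found in 59 of the 78 windows (75.6%) and in 35.7% of the 32851 windows of all genes. The median longest run was 10 bases against 7. In Rps2 and Rpl41 the run reaches the end of the window, so its full length was not read. The 7 letters CCGGAAG, on either strand of the 300 bases around the start, were found in 27 windows (34.6%) and in 8.86% of all windows. TATAAA was found in 9.0% against 13.6%, and CACGTG in 10.3% against 7.15%. A match describes these letters only.

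In resting cells ribosomal protein genes took 5.16% of the gene counts in ΔleftPAL cells (95% Clopper-Pearson interval 5.15 to 5.17) and 4.50% in ΔIRIS cells (4.49 to 4.51). After LPS they took 7.62% (7.61 to 7.63) and 7.45% (7.44 to 7.46). These intervals, like those below, hold the error of counting alone, as fragments can be PCR copies of each other, and those of ratios are taken without the added 0.5. Both LPS libraries lay above both resting libraries, and the genotypes were closer after LPS than at rest. The 40S genes went from 2.34% to 3.31% in ΔleftPAL cells and from 2.01% to 3.21% in ΔIRIS cells. The 60S genes went from 2.82% to 4.31% and from 2.49% to 4.25%. With the 6 erythroid genes taken out of the totals, of which they made 4.27% and 2.90% at rest, the resting shares were 5.39% and 4.63% and the LPS shares 7.62% and 7.45%.

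**Figure D1:**
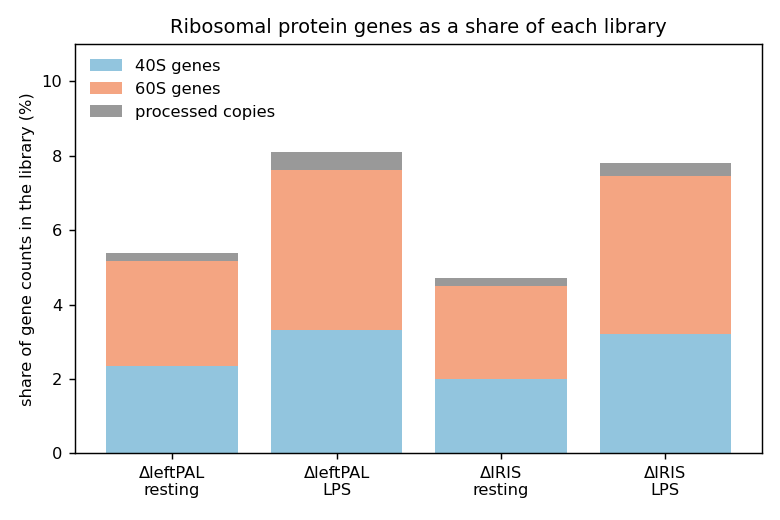
Bars give the share of gene counts (%) taken by 40S genes, 60S genes and processed copies of both in each of the 4 libraries. The genes without copies take 5.16% and 4.50% at rest and 7.62% and 7.45% after LPS.

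After LPS most of the family was higher by a small and similar amount. In ΔleftPAL cells 81 of the 84 genes had a ratio above 0, against 54.4% of all genes tested, and in ΔIRIS cells 81 of 84 against 55.1%. The median log2 ratio was 0.64 in ΔleftPAL cells and 0.75 in ΔIRIS cells, or 1.56-fold and 1.68-fold, beside 0.12 and 0.13 over all genes. The quartiles were 0.42 and 0.82 in ΔleftPAL cells, a width of 0.40 against 1.44 over all genes, and 0.55 and 0.96 in ΔIRIS cells. The widths of 0.40 and 0.41 stood beside 0.47 and 0.56 for the mitochondrial ribosomal protein genes, so a narrow spread was not particular to the cytosolic family. At least 2-fold higher after LPS were 13 genes in ΔleftPAL cells, beside 20.1% of all genes, and 17 in ΔIRIS cells, beside 21.6%. At least 1.5-fold higher were 52 and 61, beside 32.8% and 33.9% of all genes. At least 2-fold lower were 0 of the 84, beside 15.5% and 17.3%, and 1 was at least 1.5-fold lower in each genotype, beside 25.6% and 26.4%. That 1 was Rpl24, whose kallisto estimates went the other way, with log2 ratios of 1.10 and 1.16. By gene counts the members thus lay near or below the background at 2-fold and above it at 1.5-fold. By kallisto estimates 17 and 33 of 81 were at least 2-fold higher, beside 21.1% and 23.7% of all genes in that table, so in ΔIRIS cells the count at 2-fold depended on the table. Medians were alike in the subunits, 0.61 and 0.73 for the 40S genes and 0.68 and 0.81 for the 60S genes in ΔleftPAL and ΔIRIS cells.

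**Figure D2:**
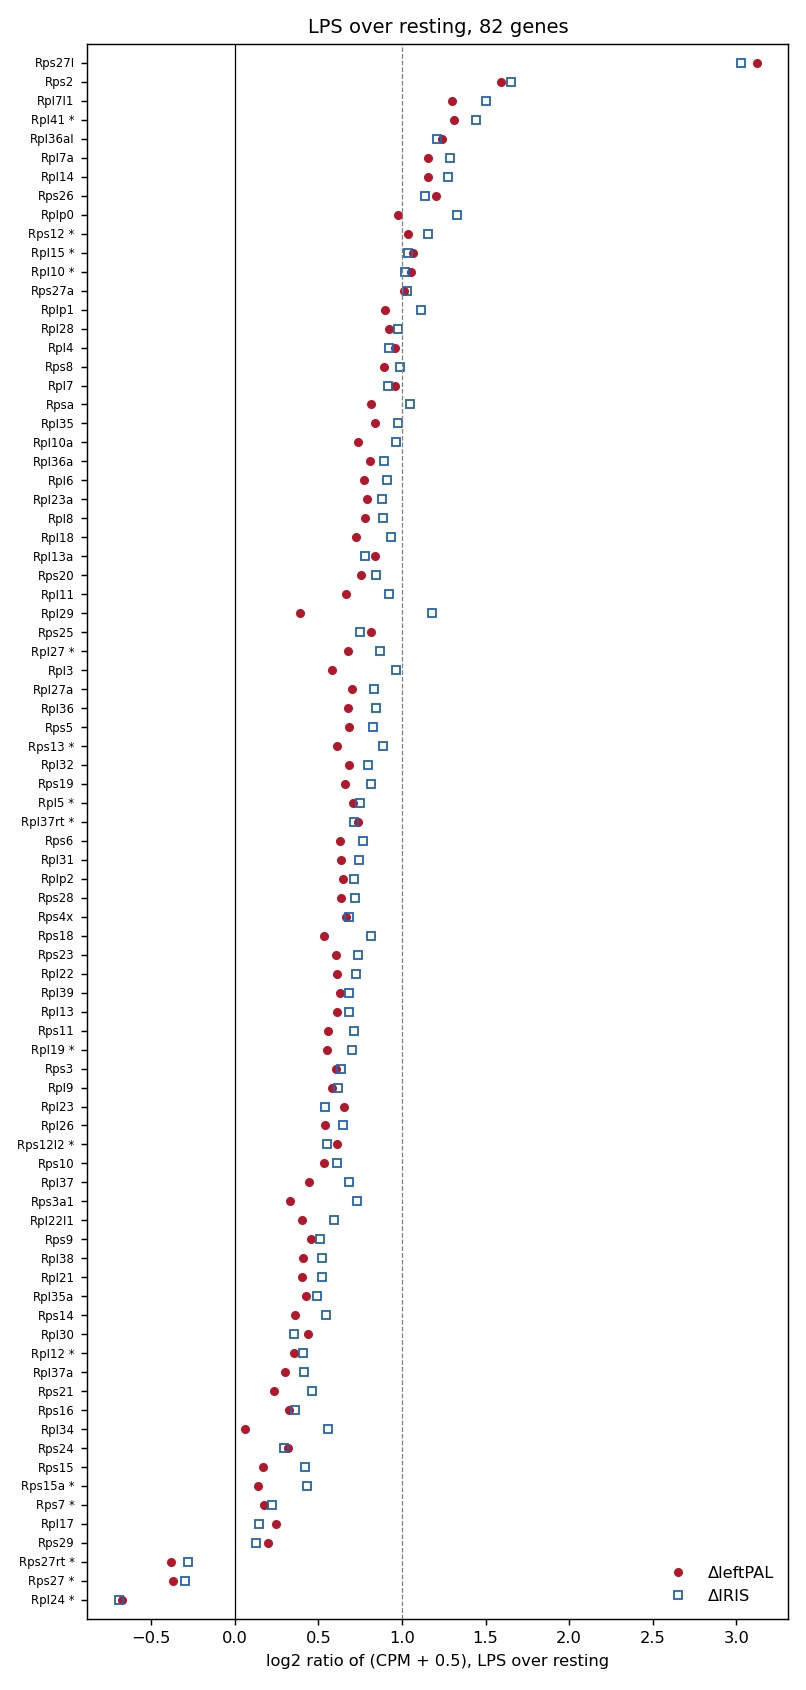
Each row is 1 of 82 of the 84 genes tested, with its log2 ratio of LPS over resting CPM plus 0.5 in ΔleftPAL (filled circles) and ΔIRIS cells (open squares), ordered by the mean of both. The dashed line marks a 2-fold rise and an asterisk marks the 16 genes whose split of reads with other loci was called uncertain. Rps27l stands at 3.12 and 3.03, above all others, and 3 genes lie below 0 in both.

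The order of the genes was close between the genotypes, whose LPS comparisons share no library. Across the 84 genes Pearson's r was 0.95 and Spearman's rho 0.90, as a description, since genes are not independent replicates and share depth and base composition between libraries. The ratio had the same sign in both genotypes for all 84 genes, and the median distance between the genotypes was 0.11.

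The largest ratio was that of Rps27l, a paralog of Rps27 known as a target of p53. It lies on the plus strand at chr9:66946086-66949516 of mm10. It had 16.3 CPM at rest and 146 CPM after LPS in ΔleftPAL cells, and 17.99 and 151 CPM in ΔIRIS cells. Both LPS libraries lay above both resting libraries by about the same factor, 8.70-fold and 8.17-fold. The log2 ratios were 3.12 (interval 3.01 to 3.31) and 3.03 (2.93 to 3.20).

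Rps2, a 40S protein at the entry of the mRNA channel, followed. It had 609 CPM at rest and 1834 CPM after LPS in ΔleftPAL cells, and 534 and 1682 CPM in ΔIRIS cells. The LPS libraries were 3.01-fold and 3.15-fold above the resting ones, with log2 ratios of 1.59 (1.56 to 1.62) and 1.65 (1.63 to 1.68). Next came Rpl41, the smallest protein of the ribosome, with 444 and 1105 CPM in ΔleftPAL cells and 343 and 935 CPM in ΔIRIS cells. Its log2 ratios were 1.31 and 1.44, and its gene counts stood at 0.63 to 0.67 of the kallisto estimates, whose ratios were 1.41 and 1.57. Rpl7l1, a paralog of Rpl7, had ratios of 1.30 and 1.5, and Rpl36al, a retrogene of Rpl36a, of 1.24 and 1.21. Among the others at least 2-fold higher in both genotypes were Rpl7a, Rpl14, Rps26, Rps12, Rpl15, Rpl10 and Rps27a. Kallisto listed Rps12 at 0 and placed its reads on Rps12-ps3, a copy of 100% identity, and Rps12 with its copies then had ratios of 1.15 and 1.30. Rpl15 had ratios of 0.71 and 1.15 by kallisto estimates and of 0.29 and 0.72 in TPM. Also below 2-fold in TPM, with ratios of 0.68 to 0.94, were Rps26, Rps27a and Rpl10 in both genotypes and Rpl7a and Rpl14 in ΔleftPAL cells. So were Rpl36al in ΔIRIS cells (0.94) and Rpl7l1 in ΔleftPAL cells (0.99).

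The stalk of the large subunit, where translation factors bind, is made of Rplp0 and of pairs of Rplp1 and Rplp2. Their log2 ratios were 0.98, 0.90 and 0.65 in ΔleftPAL cells and 1.33, 1.11 and 0.71 in ΔIRIS cells. Rplp0 had 0.62 and 1.48 by kallisto estimates and 0.25 and 1.05 in TPM, and 1.23 and 1.32 by gene counts with its processed copies added. Rpsa, the 40S protein also known as the laminin receptor, had the highest mean level in CPM, with 1534 and 2700 CPM in ΔleftPAL cells and 1232 and 2545 CPM in ΔIRIS cells. Its ratios were 0.82 and 1.05. At the other end Rps29, a zinc-binding 40S protein, had 851 and 975 CPM in ΔleftPAL cells and 781 and 853 CPM in ΔIRIS cells. Its LPS libraries were above the resting ones of the same genotype by 0.20 and 0.13 on the log2 scale, and the resting ΔleftPAL level was about that of LPS-activated ΔIRIS cells. Rpl17, Rps7 and Rps24 had ratios between 0.14 and 0.32. In TPM, Rps29 (-0.06 and -0.11) and Rps7 (-0.47 and -0.09) were below 0 in both genotypes and Rpl17 in ΔIRIS cells (-0.11), whereas Rps24 stayed above 0 (0.08 and 0.05). By kallisto estimates Rps7 had -0.10 and 0.32.

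Below 0 in both genotypes were Rps27, Rps27rt and Rpl24. Rps27, a zinc-binding 40S protein, had 1360 and 1053 CPM in ΔleftPAL cells and 1156 and 939 CPM in ΔIRIS cells, and both LPS libraries lay below both resting ones. Its log2 ratios were -0.37 (-0.39 to -0.35) and -0.30 (-0.32 to -0.28), and they were below 0 under each scaling of the gene counts. The retrogene Rps27rt, whose coding sequence of 255 bases is identical to that of Rps27, had 16.3 to 22.0 CPM and ratios of -0.38 and -0.28. Kallisto listed Rps27 at 0 and placed the reads on Rps27rt, and the sum of both then had ratios of -0.24 and -0.14. The other copies of Rps27 held only 4.002 to 6.004 estimated counts per library, with ratios of 0.09 and -0.14 that rest on these few counts. The gene count of Rpl24 lay far below its kallisto estimate. It was 62 to 134 counts, whereas kallisto estimated 6138 and 13321 in ΔleftPAL and 7367 and 14924 in ΔIRIS cells, with log2 ratios of 1.10 and 1.16. Rpl24 (chr16:55966275-55971435) shares its locus and strand with the transcript Gm28037 (chr16:55966343-55980721), which had 0 counts, and fragments overlapping a pair of genes were not counted by the authors. Whether this overlap lowered the gene count of Rpl24 was not tested.

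Paralogs were set against their parent genes by their share of the pair's gene counts. Rps27l made 1.19% (1.07 to 1.31) of the counts of Rps27 and Rps27l at rest and 12.2% (11.8 to 12.5) after LPS in ΔleftPAL cells. In ΔIRIS cells it made 1.53% (1.4 to 1.67) and 13.8% (13.4 to 14.2). The share was higher in both LPS libraries than in both resting ones, while the sum of the pair was lower by 0.20 and 0.11 on the log2 scale. The coding sequences of both genes aligned over 229 bases with 77.7% identity. The 90 aligned bases with the most differences, from base 49 to base 138 of the Rps27 coding sequence, are shown with the 19 differing bases in capitals, from GENCODE M21 transcripts.
Rps27: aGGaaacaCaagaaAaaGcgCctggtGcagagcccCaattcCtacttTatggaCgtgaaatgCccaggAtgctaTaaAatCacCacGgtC
Rps27l: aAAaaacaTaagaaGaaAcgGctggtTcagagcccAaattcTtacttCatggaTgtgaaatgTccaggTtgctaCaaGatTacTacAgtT
Rpl36al made 22.8% and 28.6% of its pair in ΔleftPAL cells and 24.6% and 29.0% in ΔIRIS cells, again higher after LPS. Rpl7l1 made 6.74% and 8.43%, and 6.06% and 8.89%. Rpl22l1, a paralog of the RNA-binding protein Rpl22, went the other way, from 25.01% to 22.4% and from 29.6% to 27.8%. Both ΔIRIS libraries had a higher Rpl22l1 share than both ΔleftPAL libraries. In TPM of protein-coding transcripts alone, Rpl22l1 had LPS ratios of 0.45 in ΔleftPAL and 0.71 in ΔIRIS cells. Those of Rpl22 were 0.45 and 0.59, so the fall in the share of Rpl22l1 was particular to whole-gene counts. Rpl3l and Rpl39l, known from muscle and testis, had 0 to 5 counts, and Rpl10l, known from testis, had 0 counts in each library, which allows up to 3 counts or 0.101 to 0.127 CPM.

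**Figure D3:**
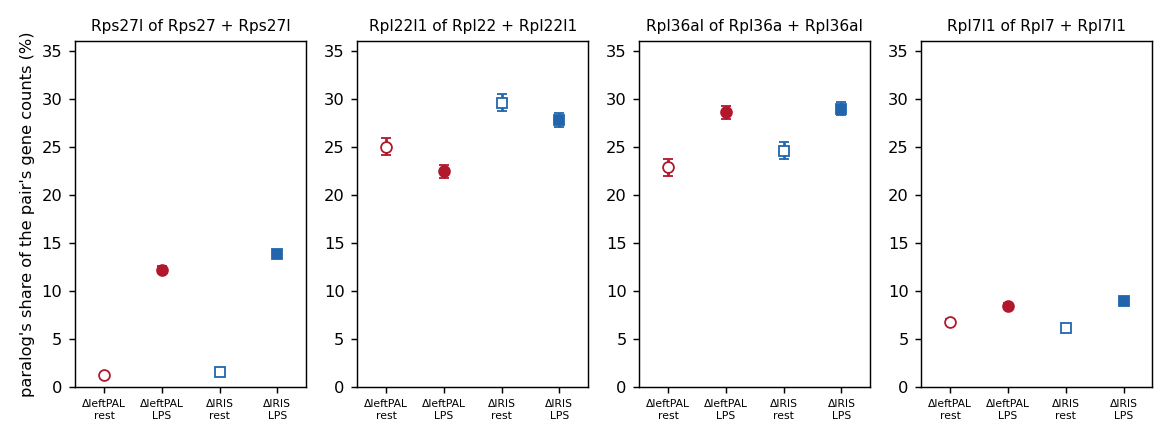
Each panel gives the paralog's share (%) of the summed gene counts of paralog and parent in each of the 4 libraries, with 95% Clopper-Pearson intervals, some smaller than the symbol. The share of Rps27l is 1.19% and 1.53% at rest and 12.2% and 13.8% after LPS.

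Levels were compared per length in TPM, kallisto's unit scaled for transcript length, over the 68 genes tested whose split was not called uncertain. Among them are Rpl29, Rpl34, Rps3a1, Rpl3 and Rplp0, whose ratios moved with copies as given below. The median of the 68 was 1372 TPM at rest and 1871 TPM after LPS in ΔleftPAL cells, and 1280 and 1844 TPM in ΔIRIS cells. The upper quartile was 1.78 to 2.09 times the lower one, so levels in the middle of the family lay close together. The highest mean levels were those of Rps29 (5034 TPM), Rplp1 (3949 TPM), Rpl13a (3397 TPM), Rps24 (3238 TPM) and Rps28 (3056 TPM). The lowest were those of Rpl7l1 (46.5 TPM), Rps27l (289 TPM), Rpl22l1 (370 TPM), Rpl36al (546 TPM) and Rpl35 (690 TPM), of which all but Rpl35 are paralogs. The level of Rpl13a includes 10 of its 11 transcripts that matched no annotated type. Its protein-coding transcript held only 661 and 1158 TPM in ΔleftPAL and 565 and 1135 TPM in ΔIRIS cells, at rest and after LPS.

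Between the genotypes at rest, 71 of the 84 genes were lower in ΔIRIS than in ΔleftPAL cells, against 49.9% of all genes. The median log2 ratio was -0.16, beside 0.00 over all genes, and 0 genes were 2-fold apart, beside 1.83% higher and 1.02% lower among all genes. At least 1.5-fold higher was 1, Rps12l2, beside 6.74%. The lowest ratios were those of Rpl36 (-0.40), Rps14 (-0.39) and Rps15 (-0.37). The highest was that of Rps12l2 (0.69), with 38 and 82 counts, followed by Rpl30 (0.22) and Rpl24 (0.19). For Rps12l2 kallisto estimated only 1.03 and 1.04 counts, with a ratio of -0.02, and for Rpl24 the ratio was -0.01 in TPM, so neither was higher in every table. By summed level erythroid markers were lower in the same direction, at 28663 against 41305 CPM, as were B cell markers, at 7770 against 8766 CPM. Myeloid markers were higher, at 386 against 288 CPM, as were plasmablast markers, at 897 against 625 CPM. Single markers went both ways. Of the markers tested, 5 of 6 erythroid and 5 of 7 B cell markers were lower, and 2 of 3 myeloid and 4 of 6 plasmablast markers higher. Their part in the ratios was not tested. After LPS 62 of 84 were lower in ΔIRIS cells, against 44.7% of all genes, with a median of -0.09 beside 0.03, and 0 were 2-fold apart, beside 0.567% higher and 1.41% lower. At least 1.5-fold higher were 2, Rps12l2 and Rpl29, beside 1.96%. With kallisto estimates the median after LPS was -0.0017 beside 0.08 over all genes, with 43 of 82 genes below 0, and in TPM it was -0.12 beside -0.05, so the size after LPS depended on the table. The 6 plasmablast markers detected were all lower in LPS-activated ΔIRIS cells, with a median of -0.50, and summed to 1279 CPM against 1815 CPM in LPS-activated ΔleftPAL cells. Their part in the ratios was not tested.

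Of the 8 genes with the highest genotype ratios after LPS, 6 moved with processed copies of the genes. Mammalian genomes hold many such copies, inserted from reverse-transcribed ribosomal protein mRNA, and 707 copies of 76 of the genes were found in the GENCODE M21 transcripts at 90% identity or more. Rpl29 had 250 and 328 CPM in ΔleftPAL cells and 221 and 501 CPM in ΔIRIS cells. The LPS-activated ΔIRIS library was the highest and the LPS-activated ΔleftPAL library came next, and the ratio between the LPS libraries was 0.61 (0.57 to 0.65). The copy Gm13841, 99.4% identical to Rpl29, had 20 and 3825 counts in ΔleftPAL cells and 10 and 35 counts in ΔIRIS cells. With all copies added the ratio of Rpl29 was 0.06. Rpl34 went from 0.42 to -0.03, Rps3a1 from 0.36 to 0.03, Rps13 from 0.32 to 0.07, Rpl3 from 0.24 to 0.03 and Rplp0 from 0.19 to -0.06. These 6 genes were thus higher in LPS-activated ΔIRIS cells by their own counts and within 0.07 of equal with copies. By kallisto the ratios of these genes alone, in the same order, were 0.76, 0.86, 0.70, 2.10, 0.83 and 0.75, and with copies they were 0.48, 0.47, 0.28, 0.13, 0.19 and 0.61. All 6 were thus lower with copies in that table too, but they ended farther from equal than by gene counts. The other two did not move with copies. Rpl22l1 had a ratio of 0.36 without and 0.37 with copies and of 0.46 by kallisto. Rps12l2, with the highest gene count ratio (0.63 from 71 and 128 counts), has no copies in this set, and by kallisto it had 3.07 and 2.06 estimated counts and a ratio of -0.13.

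**Figure D4:**
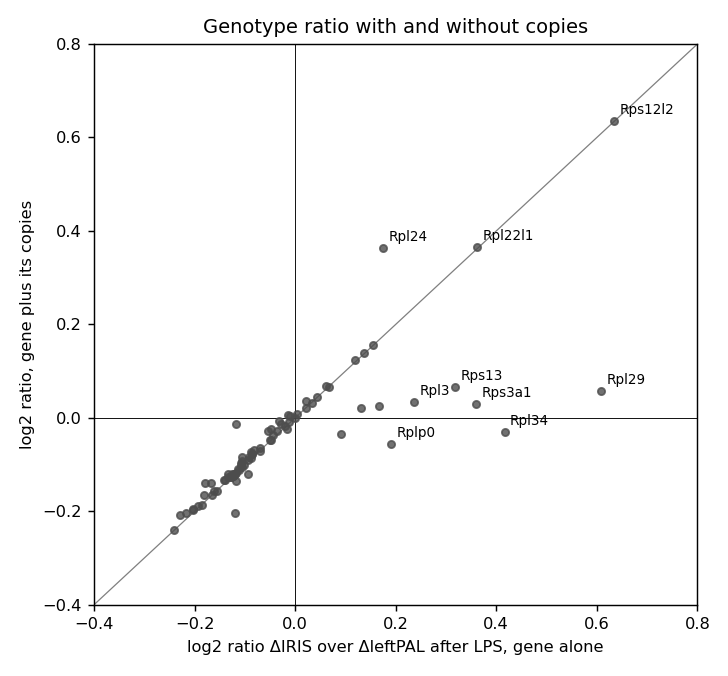
Each point is 1 of the 84 genes, with the log2 ratio of ΔIRIS over ΔleftPAL after LPS from its own counts (x axis) and from its counts plus those of its copies (y axis), and the diagonal marks equal values. Rpl29 falls from 0.61 to 0.06, whereas Rpl22l1 stays at 0.36 and 0.37.

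Of 62 copies with at least 500 counts in an LPS library, 11, from 7 parent genes, were at least 4-fold lower in LPS-activated ΔIRIS than in LPS-activated ΔleftPAL cells and 0 were 4-fold higher. Of the 6765 genes of any kind with that many counts, 0.251% were 4-fold lower and 0.0739% 4-fold higher. Rps3a3, a copy of Rps3a1, had 33 and 7287 counts in ΔleftPAL cells and 66 and 96 counts in ΔIRIS cells. Gm8730, a copy of Rplp0, had 107 and 8891 counts, and 261 and 546 counts. The LPS-activated ΔleftPAL library was the highest for all 11. Rplp0 and Gm8730 are 98.7% identical over 954 bases, and 90 of them, from base 358 to base 447 of the Rplp0 coding sequence, are shown with the 3 differing bases in capitals.
Rplp0: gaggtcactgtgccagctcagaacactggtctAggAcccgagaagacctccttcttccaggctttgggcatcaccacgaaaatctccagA
Gm8730: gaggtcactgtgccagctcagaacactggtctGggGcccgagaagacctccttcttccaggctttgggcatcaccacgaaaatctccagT
Reads that span no differing base fit both loci, and the authors counted each multiply mapping fragment at its primary alignment. The tables differed for these copies in LPS-activated ΔleftPAL cells, where kallisto estimated 372 to 2616 counts for 6 of the 11 and 0 to 6.44 for the other 5, among them Gm11942 with 2444 gene counts and 5.01 estimated. Gm8730 had 2616 estimated counts in these cells and 10.3 in LPS-activated ΔIRIS cells. Copies made 4.01% of the counts of genes and copies at rest and 5.95% after LPS in ΔleftPAL cells, and 4.75% and 4.56% in ΔIRIS cells. Whether the copies are transcribed or receive reads of their parents was not tested.

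**Figure D5:**
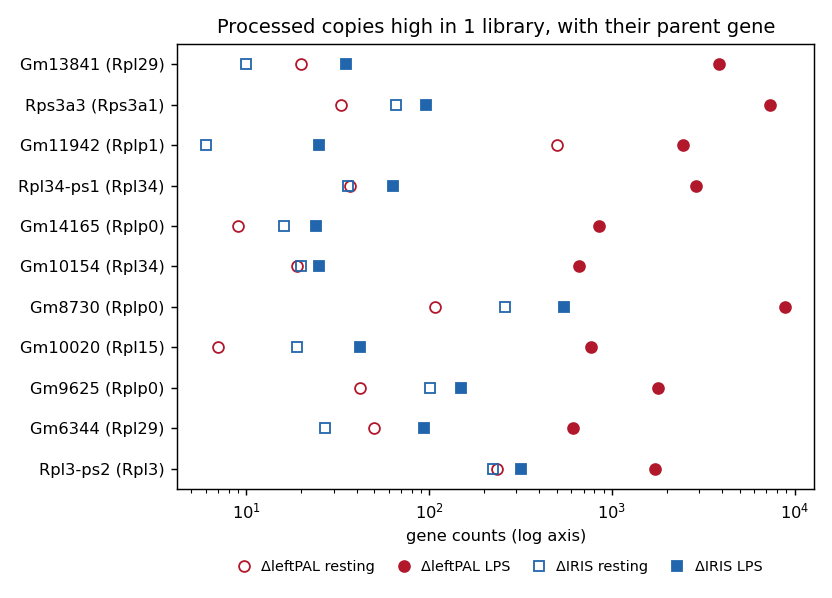
Gene counts on a log axis of the 11 copies at least 4-fold lower in LPS-activated ΔIRIS than ΔleftPAL cells, each with its parent gene, in the 4 libraries. LPS-activated ΔleftPAL cells (filled circles) are highest in every row, for example 8891 counts of Gm8730 against 546 in LPS-activated ΔIRIS cells.

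The difference in LPS response, ΔIRIS minus ΔleftPAL, had a median of 0.11 beside 0.01 over all genes. It was largest for Rpl29 (0.79), Rpl34 (0.50) and Rps3a1 (0.40), which have the copies just described. With copies added these were 0.18, 0.05 and 0.04, the median was 0.09 and the largest was 0.27, that of Rps18. The difference from gene counts alone was lowest for Rpl23 (-0.11), Rpl17 (-0.10) and Rps27l (-0.09). With copies added the lowest difference of any member was -0.21. The difference was not tested, as each response comes from 1 pair of libraries.

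Transcripts of a gene annotated as retained intron, nonsense-mediated decay or processed transcript are called noncoding here. They were summed in TPM for the 44 ribosomal protein genes that have them and no split called uncertain. Their median share of the gene was 3.19% at rest and 1.69% after LPS in ΔleftPAL cells, and 4.26% and 2.29% in ΔIRIS cells. The share was lower after LPS in 40 of 44 genes (90.9%) and in 42 of 44 (95.5%), beside 77.2% and 77.03% of the 5955 other genes with such transcripts. The other genes started from higher shares, with medians of 30.9% at rest and 21.05% after LPS in ΔleftPAL and 29.5% and 18.8% in ΔIRIS cells, and their median change was -7.20 and -7.25 percentage points against -0.55 and -1.34 in the 44 genes. Summed over the 44 genes the share went from 6.88% to 6.42% and from 7.995% to 6.204%. The noncoding transcripts of the ribosomal protein genes had median log2 ratios of -0.27 and -0.23 after LPS and their coding transcripts of 0.42 and 0.57. In the other genes the medians were -0.70 and -0.72 for noncoding and -0.08 and -0.07 for coding transcripts. Rpl22l1 went from 14.6% to 3.57% and from 17.7% to 3.32%, the largest shift shared by both genotypes. Rps3, Rps2, Rps27l and Rpl31 followed, Rps2 going from 7.13% to 1.35% and from 7.95% to 1.58%.

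Genes that act with the ribosomal proteins were counted from lists. Of the proteins of the ribosome whose names the rule does not match, Gnb2l1 (RACK1) had ratios of 0.77 and 0.89, and Fau, the precursor of the 40S protein eS30, of -0.07 and 0.07 by gene counts and 0.31 and 0.39 by kallisto. Of 19 other genes with TOP mRNAs, 7 and 8 were at least 2-fold higher after LPS, beside 20.1% and 21.6% of all genes, and 0 were 2-fold lower, beside 15.5% and 17.3%, with medians of 0.90 and 0.97. They include Npm1, a nucleolar chaperone (2.33 and 2.20), and Eef1a1, an elongation factor (0.53 and 0.58). Of 16 chaperones and importers of ribosomal proteins, 8 and 10 were at least 2-fold higher, beside the same 20.1% and 21.6%, and 0 lower, with medians of 1.01 and 1.13. Ipo5, an importin, had ratios of 2.30 and 2.32, and Heatr3, which carries Rpl5 and Rpl11, of 2.26 and 2.31. Of 11 regulators of TOP mRNA translation 2 were at least 2-fold higher in each genotype and 0 lower, with a median of 0.19 in both, so the count of higher genes lay near the 20.1% and 21.6% of all genes. Eif4e, the cap-binding protein, had ratios of 1.67 and 1.66, and Larp1, which binds TOP mRNAs, of 1.04 and 0.89. Of 9 factors of late subunit maturation, 2 and 3 were at least 2-fold higher, beside the same background, with medians of 0.76 and 0.33, among them Bysl (1.65 and 1.82) and Eif6 (1.41 and 1.47).

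The mitochondrial ribosomal proteins, which build the separate ribosome of the mitochondrion, were compared as the most similar family. Of 76 tested, 53 and 58 were at least 2-fold higher after LPS, beside 20.1% and 21.6% of all genes, with medians of 1.18 and 1.29 beside 0.64 and 0.75 for the cytosolic family. Whether these medians differ beyond replicate error was not tested.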

How the data were processed

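The authors mapped reads of 150 nt with STAR 2.4.0a to mm10 with the Ensembl 77 gene model. The deposited gene counts are unnormalized fragment counts of featureCounts (Subread 1.4.6-p1). Multiply mapping fragments were counted at their primary alignment and fragments overlapping several genes were left out. The authors also deposited kallisto 0.42.3 estimated counts per transcript, and TPM, scaled to a common sum. A row without gene name, 0.00876% to 0.0264% of counts, was left out.

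TMM sizes (edgeR 4.0.16, R 4.3.3) came from all named genes, with log2(CPM + 0.5) over genes averaging 50 counts or more. The CPM prior understates ratios of low genes. With 1 library per group no count model was used. A split was called uncertain where gene counts over kallisto estimates left 0.67 to 1.5. A gene inside these limits can still share reads with copies, as Rpl29, Rpl34, Rps3a1, Rpl3 and Rplp0 were not called uncertain. Copies were found with blastn 2.17.0+ at 90% identity over at least 150 bases and 50% of the copy. Python 3.11.15, pandas 2.3.3, numpy 2.4.6 and scipy 1.17.1 were used, and the procedure was tested on simulated data. The genes and lists were chosen with earlier results of these data known. The genes named are the stalk proteins, Rpsa, paralogs with parents, the 5 largest shared LPS changes in each direction, the 3 largest genotype ratios and response differences, the 5 highest and lowest levels, genes with uncertain splits or copies, and the 5 largest noncoding shifts. Others, and the genes picked from the lists, were chosen after their values were seen. The number of mice is described differently in the sources: pools of 4 animals in the labels, pools of 2 in the methods, and 3 mice per genotype in a figure legend. Single values of some genes are not reported here, although counts and medians include them. Promoter sequences are RefSeq's and transcripts GENCODE's.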

Additional observations from a re-analysis of the deposited data

How the results depend on the processing

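No gene count ratio of at least 2-fold changed sign under an alternative, and smaller single-gene ratios changed sign most often between the gene counts and the kallisto tables. At least 2-fold in a kallisto table with the sign opposite to the gene counts were the LPS ratios of Rpl24 (1.10 and 1.16 by estimates) and the ratio between the LPS libraries of Rpl37rt, which has an uncertain split, at -1.08 by estimates and -1.29 in TPM against 0.15. No paired analysis was possible because each group has 1 library and the labels give no replicate numbers, although resting and LPS-activated cells of a genotype may come from the same mice, and no library could be left out. Several alternatives were chosen after seeing the data: TMM over genes averaging 50 counts or more, copies found by sequence, genes without uncertain split, and totals without erythroid genes. The LPS medians of ΔleftPAL and ΔIRIS cells were 0.52 and 0.59 with TMM over genes averaging 50 counts or more, 0.75 and 0.92 with kallisto estimated counts, 0.77 and 0.91 with those plus copies, and 0.37 and 0.50 in TPM, where the median of all genes moved to -0.27 and -0.26. The genes at least 2-fold apart after LPS numbered 8 in ΔleftPAL cells with total counts, 8 and 9 with TMM over genes averaging 50 counts or more, 4 and 8 in TPM, and 33 in ΔIRIS cells with kallisto estimates, with or without copies, all of them higher. Over all genes 18.1% were 2-fold higher in the first of these, 17.3% and 17.8% in the next, 12.4% and 12.8% in TPM and 23.7% with kallisto estimates. Between the LPS libraries the ribosomal protein genes 2-fold apart numbered 2 with kallisto estimates, 1 with copies added to those, and 2 in TPM. Of all genes 1.95%, 1.93% and 1.92% were 2-fold apart there. At 1.5-fold, in either direction, 53, 62, 1 and 2 of 84 were apart in the LPS comparisons of ΔleftPAL and ΔIRIS cells and the genotype comparisons at rest and after LPS. Of all genes 58.4%, 60.3%, 11% and 6.46% were apart by that much. The share of the library in resting and LPS-activated ΔleftPAL, then resting and LPS-activated ΔIRIS cells, was 6.92%, 9.43%, 6.10% and 9.04% with kallisto estimates, 12.8%, 15.9%, 11.1% and 15.1% in TPM, 5.29%, 7.89%, 4.63% and 7.66% with named copies, and 5.37%, 8.11%, 4.72% and 7.81% with copies by sequence. Without erythroid genes in the total it was 5.39% and 4.63% at rest. The causes of these moves were not tested. Ratios above 0 after LPS numbered 80 of 84 in ΔleftPAL cells with total counts, where Rpl34 fell below 0, and 80 and 79 with TMM over genes averaging 50 counts or more, where Rpl34 in ΔleftPAL and Rpl17 and Rps29 in ΔIRIS cells fell below 0. In TPM 69 and 75 of 82 were above 0. A floor of 3 counts limits what can be said of the untested paralogs.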

Other observations

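The list of p53 and genes it regulates was measured beside Rps27l. All 6 genes had ratios above 0 in both genotypes, beside 54.4% and 55.1% of all genes, and 4 in each were at least 2-fold higher after LPS, beside 20.1% and 21.6%. Ccng1, a cyclin induced by p53, had 1581 and 11010 counts in ΔleftPAL cells and 2270 and 9885 counts in ΔIRIS cells, with log2 ratios of 2.65 and 2.10. Zmat3 had ratios of 2.86 and 2.33, and Bbc3 (Puma) of 2.72 and 1.71. Cdkn1a (p21) had 10 and 294 counts in ΔleftPAL cells and 99 and 190 counts in ΔIRIS cells, so its resting ΔleftPAL level was the lowest of the 4. Trp53 itself had ratios of 0.96 and 1.39, and Mdm2, its ubiquitin ligase, of 0.72 and 0.17.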
